A study of Ovis aries with 6 samples.

Results

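The genes described here encode the enzymes that harden the inner root sheath of the wool follicle and the cornified envelope of the epidermis, together with trichohyalin, a main substrate of those enzymes. They were taken by symbol from the deposited gene tables. Of the 9 symbols sought (TCHH, PADI1 to PADI4, TGM1, TGM2, TGM3 and TGM5), 7 were found among 28394 genes, namely PADI1, PADI2, PADI3, TGM1, TGM2, TGM3 and TGM5. TCHH was not found under its symbol and is not analysed here as a member. An unnamed row, LOC101120969, lies between TCHHL1 and RPTN and may or may not be trichohyalin, which the sources used here do not settle, and its values are given among the closing observations without being counted. The symbol PADI4 was also not found, but a table of current sheep gene names pairs it with the identifier of the row LOC105610921, and this row is described beside the members without being counted among them. The tables come from skin of the fine wool Super Merino (SM) and the coarse wool Small Tail Han (STH) sheep. Skin behind the shoulder blade was taken from 3 SM ewes (labelled 128, 30034 and 30126) and 3 STH ewes (XW3, XW5 and XW8) kept on 1 farm on the same feed, in autumn, when wool growth was expected to be in anagen, and polyA RNA of each ewe was sequenced as 1 library. The sample records give an age of 9 months for every sheep, whereas the methods of the study give 6 months. Total counts per library ranged from 28870583 to 44645091.

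Peptidylarginine deiminases (PADI) convert arginine residues of proteins to citrulline in a reaction that needs calcium, and the loss of positive charge loosens keratin-bound proteins such as filaggrin and trichohyalin. Transglutaminases (TGM) then join glutamine to lysine residues of neighbouring proteins by bonds that are not reversed in the tissue. In the follicle, PADI3 and TGM3 act on trichohyalin in the inner root sheath and medulla, and inherited defects in TCHH, PADI3 or TGM3 cause uncombable hair in people. In the epidermis, PADI1, TGM1, TGM3 and TGM5 act during the last steps of keratinocyte differentiation, when the cornified envelope is assembled.

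All 7 members and the PADI4 row had enough counts to be tested. The deiminase genes lay in 1 cluster of 319 kb on chromosome 2 of Oar_v4.0, from 248034196 to 248352997, bounded by PADI6, the deiminase of the egg, and PADI2. PADI3 (248117096 to 248147383) and PADI1 (248149748 to 248201364) lay on the same strand with a gap of 2364 bases between them. TGM1 lay on chromosome 7 (20515405 to 20529640). TGM3 and TGM2 both lay on chromosome 13, TGM3 from 52044840 to 52088922 with TGM6 at a distance of 60.8 kb, and TGM2 from 66474783 to 66508930. TGM5 lay on chromosome 18 (53879374 to 53907786), 8.57 kb from TGM7. Apart from TGM5, which shares its interval with the row LOC105603203 (total count of 0 in every sheep), no member overlapped another row of the tables.

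Levels of different genes were compared as RPKM, the read count relative to exon length and library total, as deposited. TGM3 had the highest level of the members, with 79.6 ± 23.2 RPKM (SD, n = 6 sheep), followed by PADI3 with 45.5 ± 9.14 and TGM1 with 19.4 ± 2.96. PADI1 followed with 13.5 ± 6.20 RPKM and TGM5 with 12.2 ± 4.52. TGM2 and PADI2, the members with the widest use outside keratinising cells, were lowest, with 1.02 ± 0.461 and 0.598 ± 0.160 RPKM. The PADI4 row, named after a deiminase best known from granulocytes, had 2.44 ± 0.556 RPKM. The members best known from the follicle and the cornifying keratinocyte were therefore all above the 2 broadly expressed members in every sheep.

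**Figure D1:**
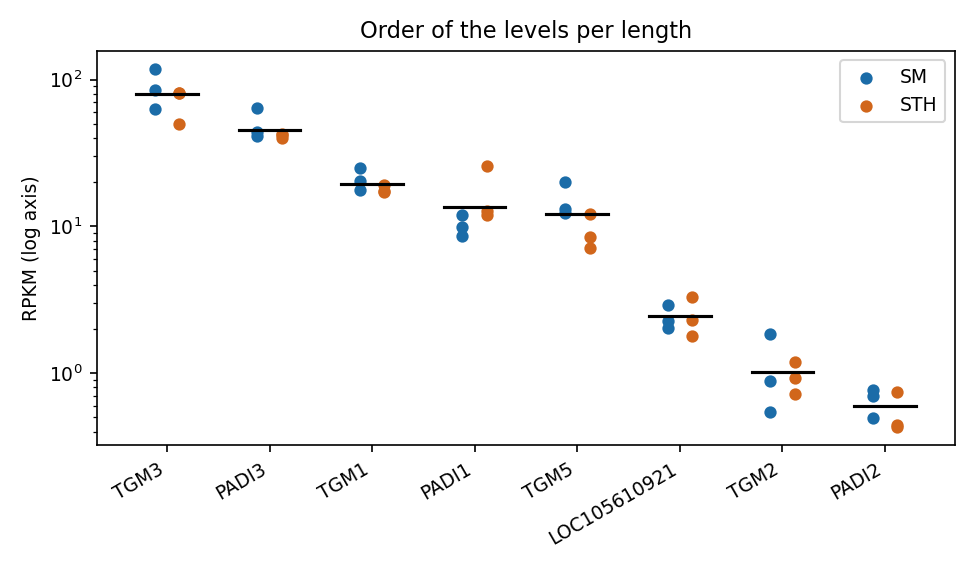
RPKM (log axis) of the 7 members and of the PADI4 row LOC105610921 in each sheep, SM in blue and STH in orange, with the mean over 6 sheep as a black line. TGM3 has the highest mean, 79.6 RPKM, and PADI2 the lowest, 0.598 RPKM, and the ranges of PADI1 and TGM5 overlap.

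Neighbours in this order were compared by the difference in log2 RPKM within each sheep. The differences were tested by an exact two-sided sign-flip permutation over the 6 sheep and adjusted over 6 pairs. The pairs were set by the mean RPKM of these same 6 sheep, so that the p-values are no independent evidence of the order. TGM3 was above PADI3 by 0.77 ± 0.28 on the log2 scale (SD, n = 6, exact permutation, adjusted p = 0.0469) and PADI3 above TGM1 by 1.22 ± 0.13 (adjusted p = 0.0469, exact permutation). TGM5 was above TGM2 by 3.61 ± 0.88 and TGM2 above PADI2 by 0.70 ± 0.59, both with the same exact permutation p. Each of these 4 pairs kept its order in all 6 sheep, which gives the smallest p that 6 sheep allow, 0.0312 before adjustment. TGM1 was above PADI1 in 5 of 6 sheep, the exception being STH sheep XW8 (exact permutation, adjusted p = 0.112). PADI1 and TGM5 could not be ordered, with PADI1 higher in 3 of 6 sheep and a mean difference of 0.13 ± 0.90 (exact permutation, adjusted p = 0.75).

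The question of the study was how skin transcripts differ between the 2 breeds. Counts were scaled by the TMM method to CPM, the counts of a gene relative to the scaled library total, and tested by the quasi-likelihood test of edgeR over 15320 genes, those reaching 10 counts in 3 sheep or more. To pass, a gene needed both a Benjamini-Hochberg adjusted p under 0.05 and a difference of more than 1.5-fold. Log2 fold changes are SM over STH. None of the 7 members passed (0 of 7, against 0% of all tested genes). The study did report differing genes from the same libraries at the same thresholds, by the edgeR algorithm within CLC Genomics Workbench. By the likelihood ratio test of edgeR and by DESeq2, which passed 2.30% and 2.78% of all genes tested, the count was also 0 of 7. At an unadjusted p under 0.05 there were 2 members, against 18.0% of all tested genes. PADI1 was the 1 with the higher mean in STH (10.8% of all tested genes) and TGM5 the 1 with the higher mean in SM (7.21%). The breeds did not overlap in 1 of 7 members, PADI1, against 25.6% of all tested genes. The median log2 fold change was 0.22 over the 7 members and 0.02 over all tested genes. Of the 7 values 6 were above 0, against 7873 of 15320 tested genes. Markers of other cell types also differed in mean. Of the sebocyte markers 6 of 6 were higher in SM (their sum 1081 to 1612 CPM in SM and 502 to 859.9 in STH), against 7873 of 15320 tested genes. Of the smooth muscle markers 5 of 5 were higher in STH (their sum 1039 to 1249 CPM in SM and 1653 to 2111 in STH), against 7447 of 15320. The study singled out markers of both kinds from the same libraries, so that their direction is no independent evidence. The part of these markers in the values of the members was not tested.

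**Figure D2:**
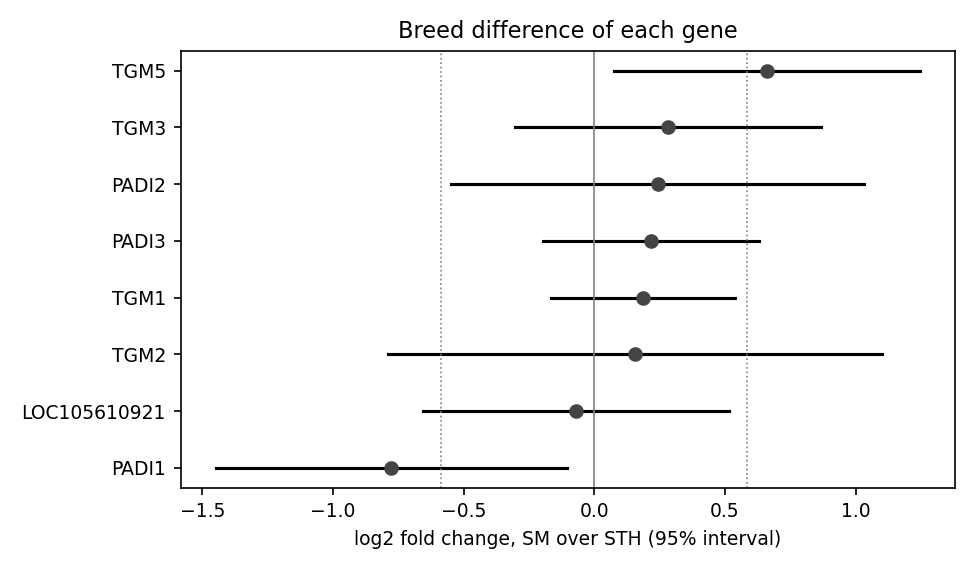
Log2 fold change of CPM, SM over STH, for the 7 members and the PADI4 row LOC105610921, with the 95% interval from edgeR's quasi-likelihood fit, the solid line at 0 and dotted lines at a change of 1.5-fold in either direction. The intervals of PADI1 (below 0) and TGM5 (above 0) leave out 0, and the other 6 include it. The intervals are not adjusted for the number of genes tested, and 18.0% of all tested genes had an unadjusted p under 0.05 in the same quasi-likelihood test.

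Of the deiminases, PADI1, which acts on keratins and filaggrin in the upper epidermis, had the widest breed difference. It had 47.3 CPM in ewe 128, 51.8 in 30034 and 63.5 in 30126 of the SM, against 64.0 CPM in XW3, 71.7 in XW5 and 143 in XW8 of the STH. All STH sheep were above all SM sheep, but the nearest sheep of the breeds, 30126 and XW3, were almost level, and XW8 stood well above the other 2 STH sheep. The means were 54.2 ± 8.40 (SD, n = 3) in SM and 92.9 ± 43.5 CPM (SD, n = 3) in STH, and the log2 fold change was -0.78 (standard error 0.30, 95% interval -1.45 to -0.10, edgeR adjusted p = 0.256). Without XW8 the log2 fold change was -0.32 (edgeR adjusted p = 0.447), and with upper quartile scaling in place of TMM the breeds overlapped. Keratin genes of the interfollicular epidermis differed in the same direction as PADI1. KRT10, a keratin of the suprabasal epidermis, had a log2 fold change of -1.34 and KRT1, its partner, -1.20. Of the 4 epidermal markers sought 3 were tested (KRT1, KRT10 and KRT5), with all 3 means lower in SM sheep (against 7447 of 15320 tested genes). Their summed level ran from 5831 to 7278 CPM in SM and from 7092 to 12510.1 CPM in STH sheep. KRT5 was the largest part of that sum, with means of 5376 CPM in SM and 7003 CPM in STH. Its log2 fold change was -0.38 and the breeds overlapped in it. Neither KRT1 nor KRT10 passed (edgeR quasi-likelihood adjusted p = 0.247 and 0.200), but both did by DESeq2 (adjusted p = 0.0198 and 0.000673) and by the likelihood ratio test of edgeR (adjusted p = 0.0438 and 0.00261). Both were among the differing genes that the study listed from the same libraries. The breeds overlapped in KRT1, with 742 CPM in XW3 and 764 CPM in 30034, and without XW8 its log2 fold change was -0.78. The part of these keratins in the PADI1 difference was not tested. In skin sampled as a whole, fewer cells of a type and less RNA per cell cannot be told apart.

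PADI3, the deiminase of the inner root sheath and medulla, had a smaller difference, with breed means of 127 ± 31.1 (SD, n = 3) CPM in SM and 109 ± 2.79 CPM (SD, n = 3) in STH. It had 116 CPM in ewe 128, 103 in 30034 and 162 in 30126 of the SM, against 109 CPM in XW3, 106 in XW5 and 112 in XW8 of the STH. The STH sheep were close together and the SM sheep surrounded them, with 30126 the highest of all. The log2 fold change was 0.22 (95% interval -0.20 to 0.63, edgeR adjusted p = 0.498), and it was 0.02 without 30126. The inner root sheath keratins, which belong to the same layer, are given with the related genes.

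PADI2, the deiminase with the broadest tissue range, was the member with the fewest counts, between 55 and 122 per sheep. It had 1.98 CPM in ewe 128, 2.70 in 30034 and 3.01 in 30126 of the SM, against 2.95 CPM in XW3, 1.75 in XW5 and 1.82 in XW8 of the STH. The breeds overlapped, with XW3 among the SM sheep (log2 fold change 0.24, 95% interval -0.55 to 1.03, edgeR adjusted p = 0.695).

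The PADI4 row LOC105610921 lay on chromosome 2 from 248079385 to 248095398, between PADI6 and PADI3. It had 6.94 CPM in ewe 128, 9.48 in 30034 and 7.46 in 30126 of the SM, against 10.9 CPM in XW3, 6.23 in XW5 and 7.98 in XW8 of the STH. The highest and the lowest values were both from STH sheep, and the breeds overlapped throughout (log2 fold change -0.07, 95% interval -0.65 to 0.51, edgeR adjusted p = 0.884). Neutrophil markers were low in all sheep. Of the 8 sought, 7 were found and 5 could be tested, and their summed level ran from 33.1 to 47.1 CPM in SM and from 29.6 to 43.4 CPM in STH sheep. None of the 5 passed. CSF3R, a receptor sought here as a neutrophil marker, had the widest difference, a log2 fold change of 1.82 (edgeR adjusted p = 0.159). It passed by the likelihood ratio test (edgeR adjusted p = 0.000752), at levels from 1.13 CPM in XW8 to 6.12 CPM in 128. The breeds overlapped in S100A8 (log2 fold change 0.58), S100A9 (0.41), CXCR2 (0.15) and FCGR3A (-0.07).

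**Figure D3:**
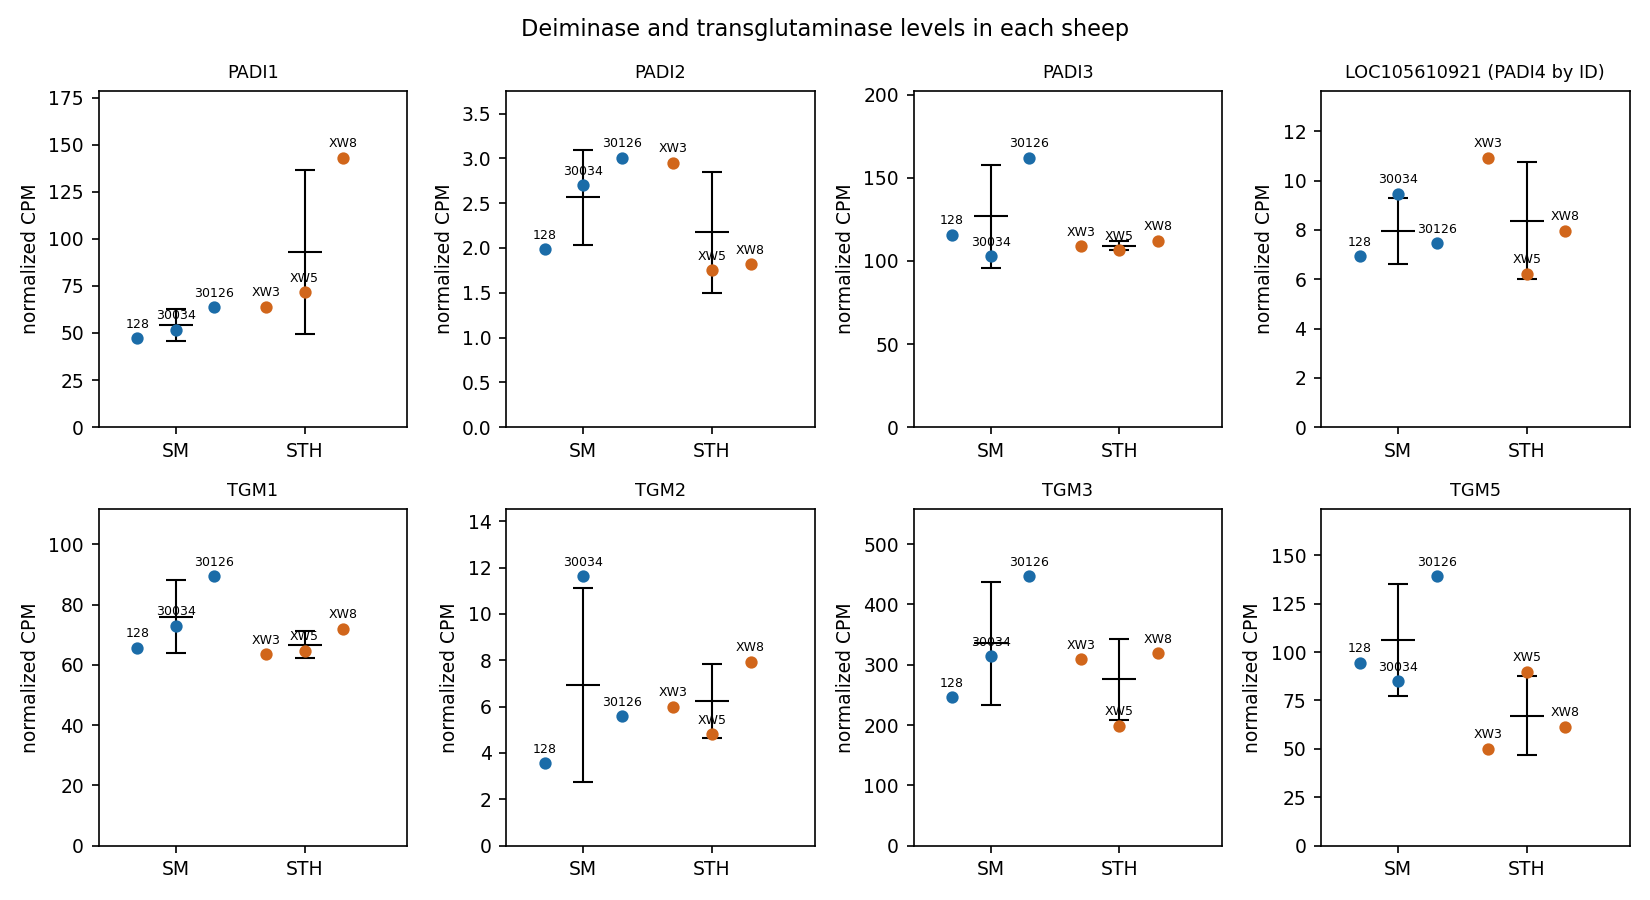
TMM-normalized CPM of each member and of the PADI4 row in the 3 SM sheep (blue) and the 3 STH sheep (orange), each point labelled with its sheep, with the breed mean as a horizontal bar and 1 SD as the error bar. PADI1 is highest in XW8 at 143 CPM, TGM5 is lowest in XW3 at 50.2 CPM, and in PADI2, PADI3, TGM1, TGM3 and TGM5 the highest point is SM sheep 30126.

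Of the transglutaminases, TGM5, which cross-links cornified envelope proteins in the upper epidermis, had the widest breed difference. It had 94.5 CPM in ewe 128, 85.0 in 30034 and 139 in 30126 of the SM, against 50.2 CPM in XW3, 89.9 in XW5 and 61.4 in XW8 of the STH. XW5 lay within the SM range and the other 2 STH sheep lay below it, so that the breeds overlapped. The means were 106 ± 28.9 (SD, n = 3) in SM and 67.2 ± 20.5 CPM (SD, n = 3) in STH, and the log2 fold change was 0.66 (standard error 0.26, 95% interval 0.08 to 1.24, edgeR adjusted p = 0.260). The value was 0.43 without SM sheep 30126 and 0.93 without XW5.

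TGM3, the transglutaminase of the inner root sheath and upper epidermis, which is made as a proenzyme and cut by proteases, was among the 2.94% of tested genes with the highest mean CPM. It had 246 CPM in ewe 128, 315 in 30034 and 447 in 30126 of the SM, against 309 CPM in XW3, 199 in XW5 and 319.6 in XW8 of the STH. The highest sheep was SM and the lowest STH, but the others were interleaved (log2 fold change 0.28, 95% interval -0.30 to 0.87, edgeR adjusted p = 0.530). Without 30126 the log2 fold change was 0.04 and without XW5 it was 0.09.

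TGM1, the membrane-bound enzyme that cross-links involucrin and other envelope proteins in keratinocytes, varied least of the members. It had 65.7 CPM in ewe 128, 73.0 in 30034 and 89.4 in 30126 of the SM, against 63.6 CPM in XW3, 64.8 in XW5 and 72.0 in XW8 of the STH. XW8 lay between 128 and 30034, and 30126 lay above all others. The log2 fold change was 0.19 and its 95% interval, -0.16 to 0.54, held no change as large as 1.5-fold in either direction (edgeR adjusted p = 0.493). Without 30126 it was 0.07.

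TGM2, or tissue transglutaminase, is made by endothelium, fibroblasts and many other cells. It had 3.57 CPM in ewe 128, 11.6 in 30034 and 5.58 in 30126 of the SM, against 6.0 CPM in XW3, 4.81 in XW5 and 7.94 in XW8 of the STH. Both the highest and the lowest value came from SM sheep, and the STH sheep lay between them. The log2 fold change of 0.15 (95% interval -0.79 to 1.10, edgeR adjusted p = 0.843) was -0.46 without 30034. The 5 endothelial markers summed to between 519 and 661 CPM in SM and between 329 and 542 CPM in STH sheep, and the 6 fibroblast markers to between 14610 and 20936 CPM in SM and between 16993 and 20971 CPM in STH sheep. Their part in the level of TGM2 was not tested.

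The same sheep stood out in several members. SM sheep 30126 had the highest CPM of the 6 sheep in 5 of 7 members (PADI2, PADI3, TGM1, TGM3 and TGM5) and the lowest in 0 of 7. Over all tested genes this sheep was the highest in 33.4% and the lowest in 31.5%. It was not the most deeply sequenced library, and its TMM factor of 0.921 was the lowest of the 6.

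The make-up of each family was described as the share of its summed RPKM. PADI3 made up 78.6% ± 3.02 (SD, n = 3) of the RPKM of PADI1 to PADI3 and the PADI4 row in SM sheep and 68.3% ± 7.48 in STH sheep. PADI1 made up 15.6% in ewe 128, 18.1% in 30034 and 15.2% in 30126 of the SM, against 20.4% in XW3, 23.4% in XW5 and 36.5% in XW8 of the STH. Each STH sheep thus had a larger PADI1 share than any SM sheep, while the summed RPKM of the family was 62.9 ± 14.0 in SM and 61.3 ± 8.31 in STH sheep. In the transglutaminases TGM3 made up 70.0% ± 2.79 in SM and 70.8% ± 7.27 in STH sheep of the summed RPKM of TGM1, TGM2, TGM3 and TGM5. TGM5 made up 12.1% ± 1.77 and 9.88% ± 4.71.

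Ratios of CPM within a sheep do not depend on how the libraries are scaled. The log2 ratio of PADI3 to PADI1 was 1.29 in ewe 128, 0.99 in 30034 and 1.35 in 30126 of the SM, against 0.77 in XW3, 0.57 in XW5 and -0.35 in XW8 of the STH. No STH sheep reached the lowest SM value, with a difference in means of 0.88 (exact two-sided permutation, p = 0.1, the smallest that 3 sheep against 3 allow, and adjusted p = 0.267 over 4 ratios). It was 0.54 without XW8. The breeds overlapped in the ratio of TGM5 to TGM1 (difference 0.49, exact permutation, p = 0.2), of PADI1 to PADI2 (difference -0.95, p = 0.2) and of TGM3 to TGM1 (difference 0.09, p = 0.8). The ratio of TGM3 to TGM1, at 2.11 ± 0.21 in SM and 2.02 ± 0.35 in STH sheep on the log2 scale, was the closest of the 4 between the breeds.

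Other genes of hardening were counted by list, and of 35 related genes tested 0 passed, with 12 of 35 at an unadjusted p under 0.05, with SM the higher breed in 4 and STH in 8, against 18.0% of all tested genes (7.21% with SM and 10.8% with STH the higher). The substrates of the cornified envelope and granular layer all had log2 fold changes below 0 (9 of 9, median log2 fold change -1.04), against 7447 of 15320 tested genes. Of these substrates, 5 were at an unadjusted p under 0.05 and had every STH sheep above every SM sheep, against 10.8% and 13.3% of all tested genes. The breeds overlapped in CDSN (log2 fold change -0.50), PPL (-0.10), EVPL (-0.08) and SBSN (-0.08). The study singled out several of the 9 substrates from the same libraries, so that their direction is no independent evidence. RPTN, or repetin, had a log2 fold change of -3.41 (edgeR adjusted p = 0.0606), TCHHL1, a relative of trichohyalin, -1.72, CNFN, or cornifelin, -1.24, IVL, or involucrin, a substrate of TGM1, -1.05, and SCEL, or sciellin, -1.04. By the likelihood ratio test and by DESeq2 these 5 passed, against 2.30% and 2.78% of all genes tested. Without XW8 the log2 fold change of TCHHL1 was -1.14. Beside them the enzymes named above for the epidermis had log2 fold changes of -0.78 (PADI1), 0.19 (TGM1), 0.28 (TGM3) and 0.66 (TGM5).

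**Figure D4:**
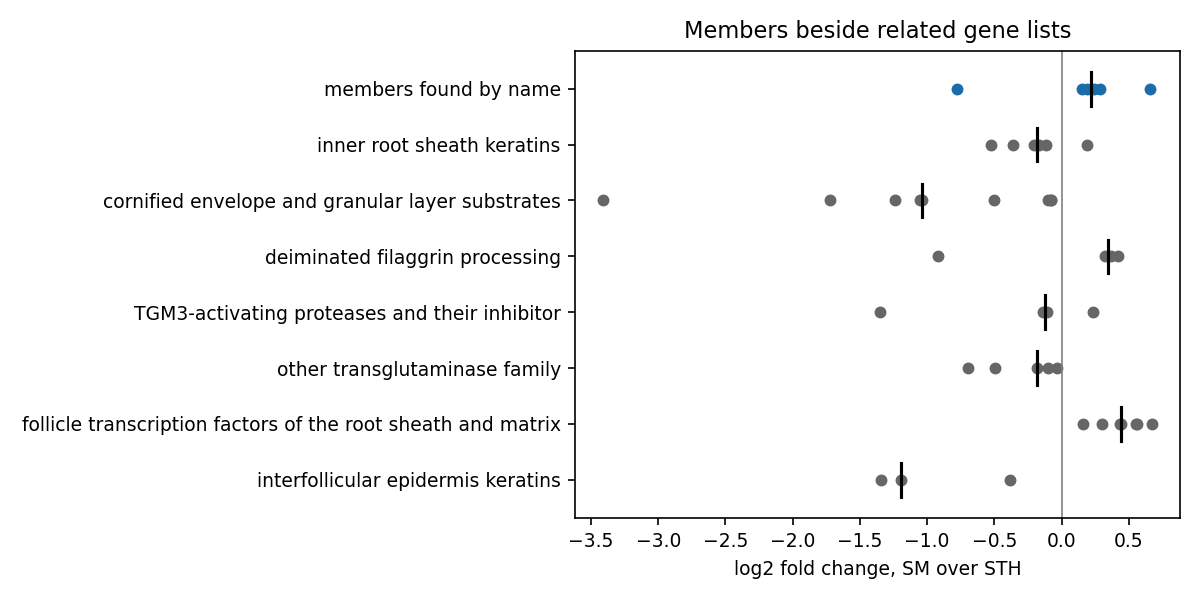
Log2 fold changes of CPM, SM over STH, with 1 point for each tested gene of each list and the list median as a black bar. The members found by name (blue) lie between -0.78 and 0.66, whereas the 9 cornified envelope substrates lie between -3.41 and -0.08.

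The inner root sheath keratins, the intermediate filaments of the layer in which PADI3 and TGM3 act, had a median log2 fold change of -0.19 over 6 tested genes. Of the 6, 5 were below 0, against 7447 of 15320 tested genes, and 0 of 6 passed. KRT27 had the widest difference, -0.52 (edgeR adjusted p = 0.247). It was the 1 of 6 with all STH above all SM sheep, against 13.3% of all tested genes. Of the genes that process deiminated filaggrin (median 0.34 over 4 tested genes), BLMH, the hydrolase that breaks down citrulline-containing peptides, had a log2 fold change of 0.42 (edgeR adjusted p = 0.262) and CASP14, the caspase of cornification, -0.92 (edgeR adjusted p = 0.247), and 0 of 4 passed. Without XW5 the value of CASP14 was -0.58. The study listed CASP14 among its differing genes, from the same libraries. The cathepsins, legumain and cystatin M/E (CST6), which govern the cutting of TGM3, had a median of -0.13, with 0 of 4 passing and 0 of 4 at an unadjusted p under 0.05. The remaining members of both enzyme families were all below 0 (5 of 5, median -0.18), against 7447 of 15320 tested genes. The breeds overlapped in PADI6 (log2 fold change -0.03), F13A1 (-0.10), TGM6 (-0.18) and EPB42 (-0.70, with between 0 and 14 counts per sheep). TGM7 was the one with an unadjusted p under 0.05, at 90.9 ± 2.93 (SD, n = 3) CPM in SM and 128 ± 26.7 CPM (SD, n = 3) in STH sheep (log2 fold change -0.50, edgeR adjusted p = 0.250). The log2 fold change of TGM7 was -0.26 with the length trend removed, -0.44 without XW5 and -0.38 without XW8, and its unadjusted p was then no longer under 0.05. The 7 transcription factors of the root sheath and matrix were all above 0 (median 0.44), against 7873 of 15320 tested genes, with 0 of 7 passing. FOXN1, CUX1 and DLX3 had log2 fold changes of 0.67, 0.56 and 0.55. In these 3 all SM were above all STH sheep, against 12.3% of all tested genes. Without 30126 the log2 fold change of DLX3 was 0.35. Of 10 keratins sought as markers of the wool cortex and cuticle 3 were tested. All 3 had higher means in SM sheep (median 0.72), against 7873 of 15320 tested genes. The summed level of the 3 ran from 3002 to 5655 CPM in SM and from 1956 to 3938 CPM in STH sheep. KRT36 was the 1 with all SM above all STH sheep (log2 fold change 0.80, edgeR adjusted p = 0.247), against 12.3% of all tested genes. The study listed KRT36 among its differing genes, from the same libraries. The part of these markers in the values of the transcription factors was not tested.

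The genes nearest to each member in pattern were found by the root mean square difference of centred log2 CPM over the 6 sheep, which is a description without a test. For PADI1 these were C1H2orf54 (0.13), LOC105608435 (0.13) and HAGHL (0.16), and for TGM5 HEXIM2 (0.10), LOC101112606 (0.13) and ECH1 (0.15). For PADI3 they were ANKRD54, NME6 and C5H1orf35 (0.04 each), and for TGM3 HPCAL4 (0.05), GALK1 (0.07) and SFXN2 (0.07). For TGM1 they were COG4, NSFL1C and TUBGCP2 (0.02 each), for PADI2 ZNF428, GSTM3 and RPA3 (0.05 to 0.06), and for TGM2 LOC101117600, PTGDR2 and P2RX5 (0.18 to 0.22). No member was among the 3 nearest genes of another member.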

How the data were processed

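Skin of 3 SM and 3 STH ewes gave 1 polyA library each, sequenced from both ends. Mapping and counting against Oar_v4.0 were done by the authors in CLC Genomics Workbench, and which read classes were counted is not stated. The deposited total counts are whole numbers without normalization. The RPKM deposited by the authors stand in a fixed ratio to these counts within each member, apart from a factor per sheep, but are above 0 for some genes whose total count is 0 (2896 in sheep 30126, the fewest). The deposited TPM and CPM were not used. Breeds were assigned by the labels.

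The members and gene lists were chosen with earlier results of these data known. Members and list genes were matched by symbol. Of each list of related genes, those past the test were to be named, or up to 4 with the smallest p where none passed, together with the 3 genes nearest in pattern to each member among those with a mean of at least 1 CPM. Envelope genes and other enzyme family genes beyond the 4 with the smallest p, and the marker genes, were named after their values were seen. The name table (ARS-UI_Ramb_v3.0) matched 21630 of 28394 identifiers and gave chromosome numbers by majority. Coordinates are those of the files.

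After TMM scaling, the 15320 genes kept were tested by the quasi-likelihood test of edgeR 4.0.16 in R 4.3.3, with breed as the only term and Benjamini-Hochberg adjustment over all of them. Intervals are at 95%. P-values of the breed comparisons are based on the variation between these sheep, and those of the level order on differences between genes within each sheep. The ratio of TCHH to root sheath keratins was planned and not run. Alternatives were RLE and upper quartile scaling, 2 other filters, DESeq2 1.42.0, limma-voom (limma 3.58.1), the likelihood ratio test, the newer dispersion estimate of edgeR, an offset for the loess trend of each library on exon length (span 0.5), and each sheep left out in turn. Scripts were tested on simulated data. In these libraries 3 counts correspond to between 0.0664 and 0.0993 CPM, a floor that covers counting error only.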

Additional observations from a re-analysis of the deposited data

How the results depend on the processing

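Of 105 log2 fold changes of the 7 members under 15 alternatives, 103 kept their direction and none passed the thresholds. The 2 that changed direction were those of TGM2 without 30034 (-0.46) and without XW5 (-0.01), and leaving out 1 sheep gave values from -0.46 to 0.46. The PADI4 row changed direction without 128 (0.02) and without XW3 (0.17), and leaving out 1 sheep gave values from -0.25 to 0.17. The count of members past both thresholds was 0 throughout, also without SM sheep 128, where 7.59% of all tested genes passed. At an unadjusted p under 0.05 the count of members went from 2 to 1 with the length trend removed (19.6% of all tested genes), and ranged from 0 (without XW8) to 2 with any 1 sheep removed. Over all tested genes that share ranged from 7.4% (without XW5) to 30.2% (without 128), and was 12.5% without XW8. The members without overlap went from 1 to 0 with upper quartile scaling and ranged from 1 to 3 (without 30034) with any 1 sheep removed. The share of all tested genes without overlap was not computed under these settings, so that these counts cannot be read against it. Of the related genes, 5 passed by DESeq2 and 5 by the likelihood ratio test, 1 without the count filter, 1 with the newer dispersion estimate and 1 with the length trend removed (RPTN in each), and from 0 to 5 (without 128) with any 1 sheep removed. The breed difference in the log2 ratio of TGM3 to TGM1, 0.09, ranged from -0.11 (without XW5) to 0.23 (without XW3), and was -0.01 without 30126. With 1 sheep left out the exact permutation over 2 against 3 cannot fall under 0.05. No paired analysis was possible because the labels number no sheep across the breeds.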

Other observations

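TGM5 and TGM7, neighbours on chromosome 18, had log2 fold changes of opposite sign (0.66 and -0.50). The log2 ratio of TGM5 to TGM7 was 0.11 in ewe 128, -0.13 in 30034 and 0.60 in 30126 of the SM, against -0.97 in XW3, -0.62 in XW5 and -1.28 in XW8 of the STH, so that the lowest SM value was above the highest STH value. The log2 fold change of TGM7 was -0.26 with the length trend removed. This pair was chosen after its values were seen, and it was not tested.

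LOC101120969, on chromosome 1 of Oar_v4.0 from 100878420 to 100886402 between TCHHL1 and RPTN, carries no gene symbol in the tables or the name table, and it was chosen after its values were seen. Its position leaves it possible that the row is trichohyalin, TCHH, but no source used here names it, and its values are those of an unnamed row. It had the highest mean CPM of all 15320 tested genes, with 11899.8 CPM in ewe 128, 12264 in 30034 and 10898 in 30126 of the SM, against 13573 CPM in XW3, 19133 in XW5 and 19932 in XW8 of the STH. The breeds did not overlap, with STH the higher, against 13.3% of all tested genes. The log2 fold change was -0.59 (95% interval -1.02 to -0.16, edgeR quasi-likelihood adjusted p = 0.247). The adjusted p over the alternatives lay between 0.0675 (DESeq2) and 0.628 (without XW5). LOC101120969 shares its interval with LOC105613034, which had a total count of 0 in every sheep.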
